A study of Danio rerio with 20 samples.

Results

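The exercise main effect in the zebrafish brain was examined in all 20 RNA-seq libraries, 10 from fish exercised in a swim tunnel and 10 from fish kept without exercise. Exercised and unexercised fish were compared within each of 2 ages, 1 year and 3 years, and the 2 differences were averaged, so that each gene received 1 exercise value with age held fixed. All fish were male Danio rerio with the strain label AB JxTu, the tissue was brain, and each combination of age and exercise held 5 libraries. A swim tunnel makes fish swim by pushing a steady flow of water past them. The labels name no other treatment, and no duration of swimming, interval before sampling or hour of sampling was given in the sources used here. Nor do they say that every library came from a separate fish, and the p-values cover only the spread among these libraries. Libraries held 23.4 to 34.6 M counts, and 21148 of the 32105 Ensembl genes in the table had enough counts to be tested.

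Swimming reaches the brain by several routes. Active neurons switch on immediate early genes within minutes, steroid hormones of the stress axis enter the brain and act on transcription through their receptors, and feeding, light and activity set the phase of the circadian clock that most cells carry. In rodents, exercise is also linked to growth factors, to the transcriptional co-activator PGC-1 alpha and to changes in cellular fuel use. Lists of genes for these pathways, and for the cell types of the brain and of neighbouring tissues, were used to order the results.

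The tissue label was checked against defining markers. Neuronal genes were high in each library (SNAP25, ENSDARG00000020609, at 3055 to 4631 CPM, the normalised count relative to the scaled size of the library), as were the astroglial gene SLC1A2 (1125 to 1966 CPM) and the myelin gene mbpa (6915 to 15580 CPM). Markers of neighbouring tissues were uneven. Genes of the retina and pineal gland, such as opsins, were summed per library. Their level was 575.8 CPM in 1-year exercised replicate 3, 403.9 CPM in 3-year exercised replicate 2 and 474.6 CPM in 3-year exercised replicate 4. That sum lay between 26.8 and 50.6 CPM in the other 17 libraries. All 3 of the high libraries came from exercised fish. They are named high in retina genes below, although the summed list does not tell retina from pineal gland. Of 25 list members tested, 24 had positive exercise values, with a median log2 fold change of 2.34. In edgeR 17 were higher without adjustment and 0 passed at an adjusted p below 0.05, while DESeq2 called 13 higher. Muscle and epidermis genes were highest in 1-year unexercised replicate 1, at summed levels of 11190 and 5428 CPM. Epidermis genes were also high in 3-year unexercised replicate 3 (3121 CPM), and pituitary genes in 3-year exercised replicate 1 (320.2 CPM, with 13.2 CPM or less in the others).

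With the ages averaged, 192 genes were called, 144 higher and 48 lower after exercise. A gene is said to be called, or to have risen or fallen, at an adjusted p below 0.05 in edgeR's quasi-likelihood test with Benjamini-Hochberg adjustment over all genes tested. Calls in either direction made up 0.908% of the genes, higher calls 0.681% and lower calls 0.227%. Without adjustment, 2924 genes had a p below 0.05, 1371 of them higher and 1553 lower. Of all genes tested, 45.7% had a positive exercise value. The median log2 fold change over all genes was -0.02, and it was 0.55 over the genes called higher and -0.38 over those called lower. Most differences were modest in size: 11 genes at least doubled (log2 fold change above 1) and 6 fell below -1. There were 45 lists with 1695 genes tested, of which 46, or 2.71%, were called, and 19 lists held no called gene. The lists were drawn up with earlier results of these data known, so this share is no support for any of them. The plot of all genes shows the called genes against the rest.

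**Figure D1:**
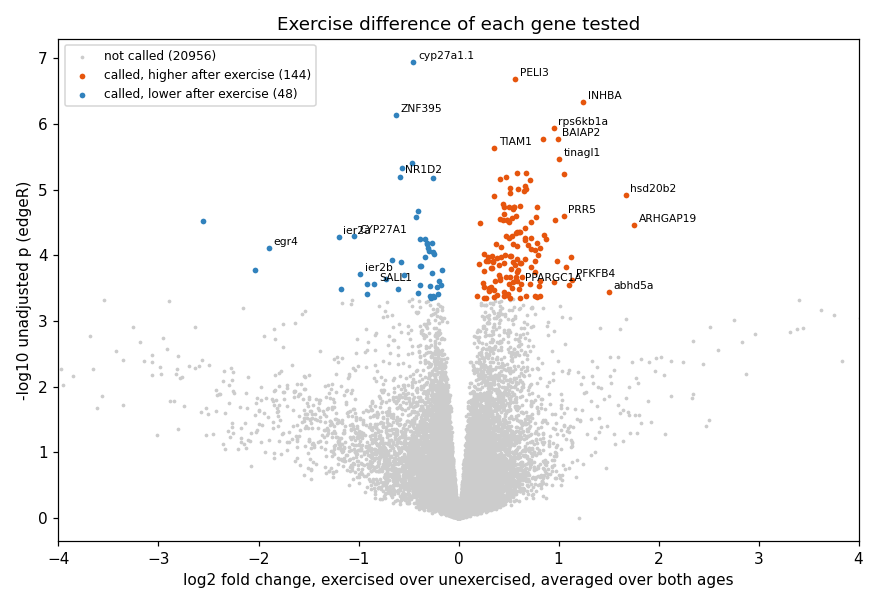
Log2 fold change with exercise averaged over both ages (x axis, drawn from -4 to 4, which leaves out 17 uncalled genes) against -log10 of the unadjusted edgeR p (y axis) for each gene tested. The 144 genes called higher lie mostly between 0 and 1.2 and the 48 called lower mostly between 0 and -1.2, with hsd20b2, ARHGAP19, abhd5a and egr4 among those further out.

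The number of calls rested on which libraries were included, while the sizes of the differences moved little. Without the 3 libraries high in retina genes, 12 genes were called, 9 higher and 3 lower, all of them among the 192. They included PELI3, INHBA (ENSDARG00000024759), rps6kb1a, BAIAP2 (ENSDARG00000103333), TIAM1 (ENSDARG00000078430), STARD13 (ENSDARG00000098954), ERF (ENSDARG00000062801) and SGK3, which were higher, and cyp27a1.1, ZNF395 (ENSDARG00000024195) and NR1D2, which were lower. The median log2 fold changes of the 144 and the 48 genes were then 0.53 and -0.38, the direction of all 192 was the same, and all 192 had an unadjusted p below 0.05. The 192 were selected in fits that held these same libraries, which favours the same direction and a low unadjusted p. The value of 1 of the 192 moved by more than 1.5 times. The retina list itself had a median of -0.12 without those libraries. Leaving out the 3 libraries high in muscle, epidermis or pituitary genes gave 146 calls, of which 110 were among the 192. Leaving out all 6 gave 1, STARD13. Among fits that each left out 1 of the 20 libraries, 10 moved the count by more than 1.5 times. Calls numbered 89 without 1-year unexercised replicate 3, 111 without its replicate 4 and 425 without its replicate 5. They numbered 89 and 106 without 1-year exercised replicates 3 and 5, and 102 and 111 without 3-year unexercised replicates 3 and 4. They numbered 349, 101 and 95 without 3-year exercised replicates 1, 4 and 5. In all 20 of these fits 80 genes were called, 63 higher and 17 lower. The part of retina genes in the exercise differences was not tested beyond these values.

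The called genes were averaged in each library. The mean level of the 144 higher genes, on a log2 scale set to 0 at the unexercised mean of the same age, was 0.53 to 0.84 in the 1-year exercised libraries and 0.35 to 0.76 in the 3-year exercised ones. Unexercised libraries lay between -0.15 and 0.15, except 1-year unexercised replicate 5 at 0.33. In that library 64 of the 144 genes reached the range of the 1-year exercised libraries, against 3 to 13 in the others of its group. Apart from that library, such overlap of unexercised libraries was wider at 3 years. Of the 144 genes, 28, 61, 16, 34 and 40 reached the 3-year exercised range in 3-year unexercised replicates 1 to 5. In exercised replicates 1 to 5, 47, 36, 14, 52 and 22 of them reached the unexercised range at 1 year. At 3 years 55, 40, 35, 6 and 2 did so. The 48 lower genes had means of -0.63 to -0.46 in the exercised libraries and of -0.20 to 0.15 in the unexercised ones. The libraries high in retina genes were at 0.84, 0.43 and 0.74 for the higher genes, and -0.63, -0.50 and -0.58 for the lower. Of these, 1-year exercised replicate 3 and 3-year exercised replicate 4 were the lowest of their groups for the lower genes. These means use the genes the comparison selected, so they describe the libraries and test nothing. Once the group means were taken out, the higher genes had a median pairwise correlation of 0.35 over 20 libraries, against 0.10 for the lower genes. No such value was computed over all genes tested, so neither has a baseline.

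**Figure D2:**
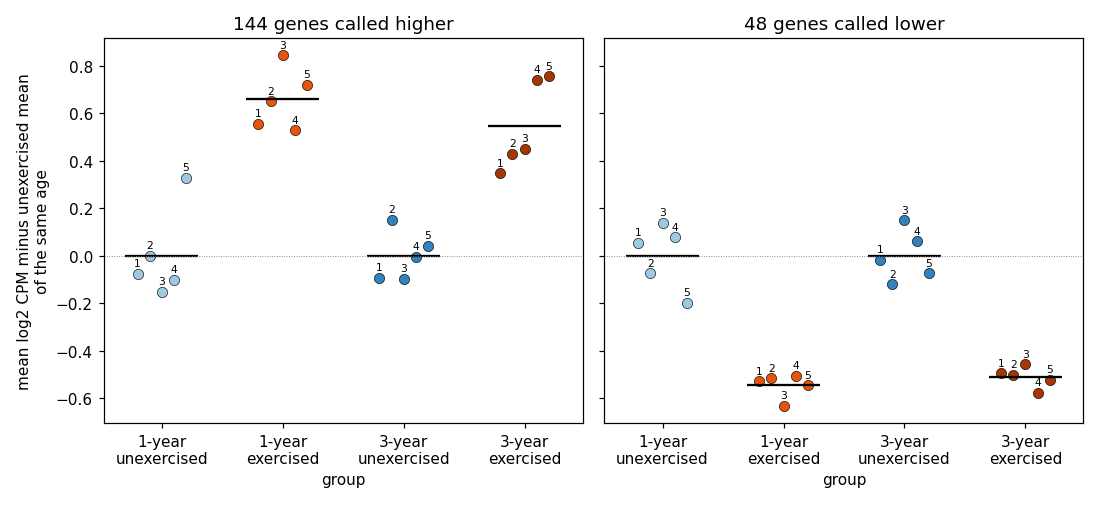
Mean log2 CPM of the 144 genes called higher (left) and the 48 called lower (right) in each library, minus the mean of the unexercised libraries of the same age. Points are libraries with their replicate number, and bars are group means. Exercised libraries sit at 0.35 or above on the left, and unexercised ones at 0.15 or below except 1-year replicate 5 at 0.33.

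All 192 genes had the same sign at both ages, which the averaging favours. The higher genes had a median log2 fold change of 0.63 at 1 year and 0.47 at 3 years, and 104 of the 144 were larger at 1 year. The lower genes had medians of -0.42 and -0.38. A test of the difference between the exercise effects called 1 gene of the 21148, cyp27a1.1, and 1004 genes had an unadjusted p below 0.05 for it. Among the 192, 18 had an unadjusted p below 0.05 for that difference. The largest spread among clock genes was that of PER2, at 0.05 ± 0.14 at 1 year and 0.96 ± 0.14 at 3 years (log2 fold change ± SE, edgeR adjusted p of the difference 0.696). Its 1-year value includes unexercised replicate 5, which at 270 CPM stood far above the rest of its group. Without that library the averaged value of PER2 was 0.61, against 0.51 in the main fit. Each age alone gave few calls, 4 at 1 year and 6 at 3 years.

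**Figure D3:**
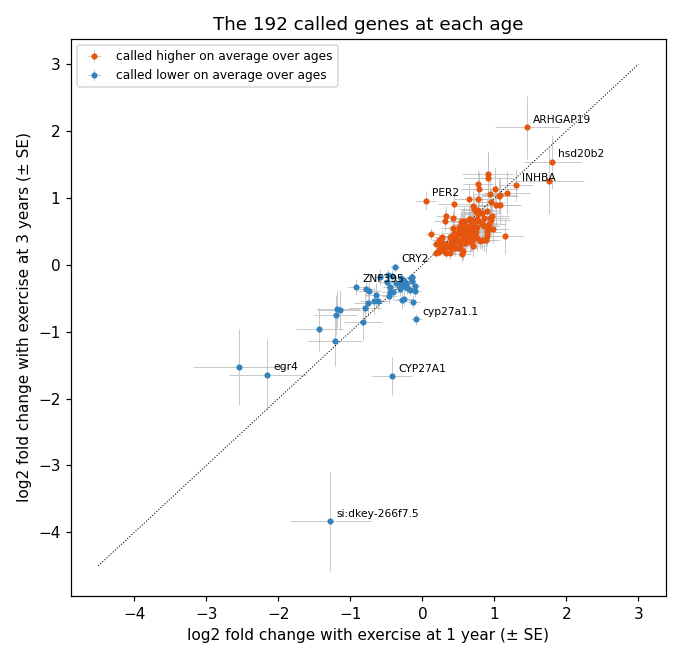
Log2 fold change with exercise at 1 year (x axis) and at 3 years (y axis) for the 192 called genes, each with its standard error; the dotted line marks equal values. All points lie in the lower left or upper right quadrant. PER2 and cyp27a1.1 lie close to 0 at 1 year and at 0.96 and -0.82 at 3 years. The 1-year value of PER2 includes unexercised replicate 5, which stood far above the rest of its group.

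Few genes separated exercised from unexercised libraries completely. In 3 genes each exercised library lay on 1 side of each unexercised library, over both ages. TIAM1 (ENSDARG00000078430), which activates the small GTPase Rac, ran from 58.8 to 79.8 CPM (median 69.9) without exercise and from 81.4 to 101 CPM (median 88.8) with it. The matrix protein gene tinagl1 ran from 13.6 to 32.7 CPM (median 20.2) and from 32.9 to 62.7 CPM (median 42.1). The third, hcfc2, was lower, at 19.4 to 28.2 CPM without and 16.3 to 19.0 CPM with exercise. Their log2 fold changes were 0.35 ± 0.05, 1.00 ± 0.15 and -0.25 ± 0.06, with edgeR adjusted p of 0.00603, 0.00787 and 0.0493, and hcfc2 was called in 5 of 20 fits that each left out 1 library and not in the additive model of age and exercise. Within each age taken alone, 18 genes did not overlap in the same direction, or 0.0851% of those tested, and 16 of them were called. They included rps6kb1a, ABCA1, hsd20b2, bcl2l13, PRR5 and SLC38A4 among the higher and TSHZ3, UBAC1 and foxq1b among the lower.

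Immediate early genes, which neurons induce when they fire, fell where they were called: of 47 tested, 0 rose and 3 fell, egr4, ier2a and ier2b. Among all genes tested, 0.681% were called higher and 0.227% lower. The transcription factor gene egr4 stood at 200, 380, 283, 272 and 85.9 CPM in 1-year unexercised replicates 1 to 5 and at 39.2, 86.7, 37.7, 41.7 and 69.2 CPM in the exercised ones. The 3-year fish had 37.7, 40.0, 324, 192 and 102 CPM without exercise and 24.0, 29.9, 70.6, 47.0 and 51.5 CPM with it. The groups overlapped at both ages, and 3-year unexercised replicates 1 and 2 lay inside the exercised range. In ier2a, a nuclear factor of the early response, the 1-year groups did not overlap, while 3-year unexercised replicates 1 and 2 again lay inside the exercised range. Without exercise it had a median of 24.6 CPM (9.42 to 40.5), and with exercise 9.64 CPM (7.25 to 16.4). Its copy ier2b had medians of 24.7 and 11.4 CPM. Log2 fold changes were -1.90 ± 0.37 for egr4, -1.20 ± 0.23 for ier2a and -0.98 ± 0.21 for ier2b (edgeR adjusted p 0.0204, 0.0177 and 0.0314).

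The list as a whole had a median log2 fold change of -0.24, against -0.02 over all genes, and -0.44 at 1 year against -0.06 at 3 years. Without adjustment 19 members were lower and 6 higher, against 1553 lower and 1371 higher among all 21148 genes tested. Several well-known members had negative values but missed the threshold: FOS at -1.54 ± 0.38 (adjusted p 0.0593), egr1 at -1.07 ± 0.25 (0.0515), the growth-arrest gene BTG2 at -1.17 ± 0.28 (0.0529) and NPAS4 (ENSDARG00000055752) at -1.39 ± 0.40 (0.116). NPAS4, which is induced by calcium entry in neurons, ran from 585 to 1195 CPM in 1-year unexercised fish and from 192 to 304 CPM in exercised ones. At 3 years, however, unexercised replicates 1 and 2 stood at 29.0 and 54.2 CPM, below the lowest exercised library at 152 CPM. In 1-year unexercised replicate 5 FOS was 22.3 CPM, while its group otherwise held 70.1 to 94.4 CPM. Other members differed less: the second NPAS4 copy (ENSDARG00000087753) was at -0.28, fosaa at -0.15 and FOSB at 0.26 (edgeR adjusted p 0.542, 0.810 and 0.796). Of the 47 tested, 31 had negative and 16 positive values. Without the libraries high in retina genes no member was called (egr4 -1.78, adjusted p 0.193), and without 1-year unexercised replicate 5, 6 were lower and 2 higher.

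**Figure D4:**
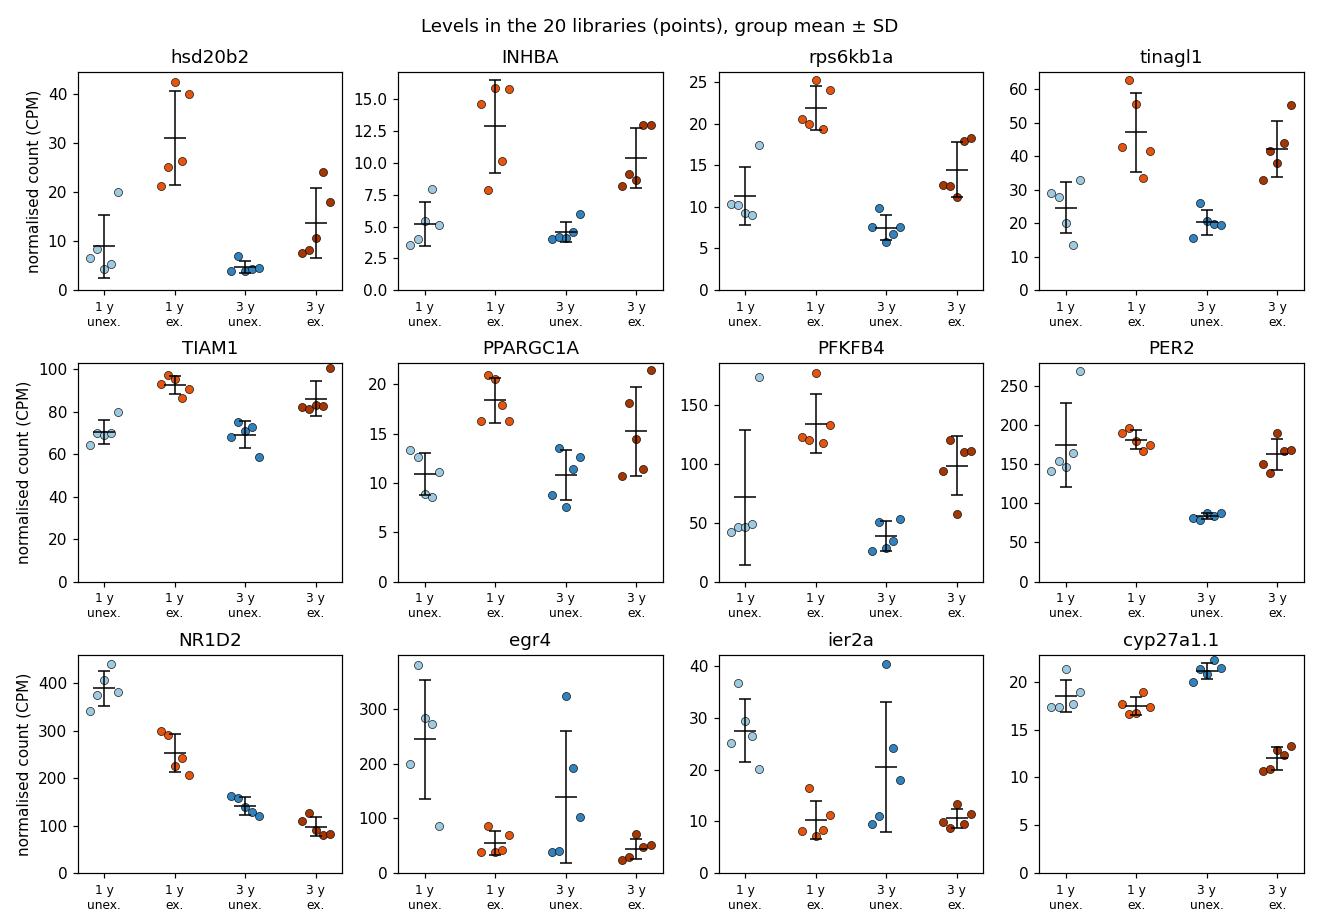
Normalised counts (CPM, y axis from 0) of 12 called genes in the 20 libraries, by age and exercise; points are libraries, and bars give the group mean ± SD (n = 5). TIAM1 and tinagl1 show no overlap between exercised and unexercised libraries, egr4 and ier2a have 3-year unexercised points inside the exercised range, and cyp27a1.1 stands at 21.1 ± 0.835 CPM without and 12 ± 1.2 CPM with exercise at 3 years.

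Clock genes moved in both directions. Counts of calls on the clock lists are to be read against the 0.681% of all genes called higher and the 0.227% called lower. The clock is a loop in which CLOCK and BMAL proteins switch on period, cryptochrome and REV-ERB genes, whose products then repress it. Of 12 activators 2 rose, CLOCK (ENSDARG00000003631) and the orphan receptor gene rorcb, and 0 fell. CLOCK stood at 22.7 to 36.8 CPM (median 27.4) without exercise and 29.9 to 46.2 CPM (median 39.0) with it, at a log2 fold change of 0.47 ± 0.08. The median of the activator list was 0.32, with 9 of 12 members positive. BMAL1 (ENSDARG00000035732) at 0.34 ± 0.09 and npas2 at 0.89 ± 0.23 did not pass (adjusted p 0.0984 and 0.0692).

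Of 26 repressors and their regulators 2 rose and 2 fell. NR1D2, which encodes the repressor REV-ERB beta, stood at 342, 375, 406, 442 and 381 CPM in 1-year unexercised fish and 298, 290, 227, 243 and 207 CPM in exercised fish. Levels at 3 years were lower in both, at 163, 159, 138, 129 and 120 CPM and at 109, 126, 90.7, 80.1 and 81.4 CPM. At 1 year the groups did not overlap, and at 3 years 1 exercised library reached the unexercised range. The log2 fold change was -0.58 ± 0.09 (edgeR adjusted p 0.00787). CRY2, a cryptochrome repressor, was -0.21 ± 0.05 over both ages, and -0.38 ± 0.07 and -0.03 ± 0.07 at the 2 ages. A zebrafish relative of the REV-ERB genes, nr1d4a, rose (0.60 ± 0.11), and so did PER2 (0.51 ± 0.10). PER2, a period gene, stood at 141, 154, 146, 164 and 270 CPM in 1-year unexercised fish and 167 to 197 CPM in exercised fish. The 3-year groups stood at 78.3 to 87.7 CPM and 139 to 190 CPM, with no overlap. PER1 (ENSDARG00000012499) missed the threshold at -0.35 ± 0.09 (adjusted p 0.0715).

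Among 7 output genes of the clock, the transcription factor HLF rose (0.67 ± 0.16) and tefa fell (-0.32 ± 0.06), while tefb, at 0.60 ± 0.17, did not pass (adjusted p 0.0960). Calls of CLOCK, NR1D2, nr1d4a, PER2 and tefa were made in all 20 fits with a library left out, those of rorcb in 18, HLF in 5 and CRY2 in 4. PER2, HLF and CRY2 were not called in the additive model of age and exercise. Only NR1D2 of these clock genes was called without the libraries high in retina genes. The hour of sampling was not given, and the part of clock phase in these values was not tested.

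Glucocorticoid targets and regulators were called in both directions, 4 higher and 1 lower of 37. The shares over all genes tested were 0.681% higher and 0.227% lower. The highest fold was that of hsd20b2, which encodes the enzyme that reduces cortisone to an excreted product in zebrafish. At 1 year its level was 6.47, 8.29, 4.24, 5.35 and 20.1 CPM without exercise and 21.2, 25.1, 42.4, 26.3 and 40.0 CPM with it. The 3-year values were 3.92, 6.85, 3.97, 4.38 and 4.39 CPM and 7.58, 8.09, 10.6, 24.1 and 18.0 CPM. Groups of the same age did not overlap, although 1-year unexercised replicate 5, at 20.1 CPM, came close to the exercised range. The log2 fold change was 1.67 ± 0.28, or 3.18-fold (edgeR adjusted p 0.00973).

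FOXO1 (ENSDARG00000099555), a transcription factor held out of the nucleus by insulin, had medians of 31.3 CPM without and 46.2 CPM with exercise (0.58 ± 0.09). The zinc finger gene zbtb16b rose by 0.61 ± 0.12, and GLUL (ENSDARG00000100003), the glutamine synthetase of astroglia, by 0.54 ± 0.12. GLUL ran from 230 to 512 CPM without and 356 to 614 CPM with exercise, so its groups overlapped. CRY2, also on this list, was the member that fell. The most widely used reporter of glucocorticoid action, FKBP5, did not pass (1.15 ± 0.52, adjusted p 0.337). At 3 years FKBP5 was 29.5, 216, 95.2, 102 and 458 CPM without exercise and 760, 583, 172, 408 and 492 CPM with it. At 1 year the exercised libraries held 598 to 989 CPM and the unexercised ones 54.0 to 285 CPM, apart from replicate 5 at 1365 CPM. KLF9, another direct target, also had its highest level in that library, 134 CPM, and missed the threshold (1.52 ± 0.52, adjusted p 0.193). With that library left out, FKBP5 at 1.81 and KLF9 at 2.25 were called (edgeR adjusted p 0.0399 and 0.00649). Neither was called without the libraries high in retina genes (0.635 and 0.540). The receptor gene NR3C1 was -0.10 ± 0.04 (adjusted p 0.204). The list had a median of 0.12, and 8 members were called higher and 2 lower without 1-year unexercised replicate 5, against 0 in either direction without the libraries high in retina genes. In the list of stress-axis peptides and receptors, 0 of 12 were called, with 2 higher and 0 lower without adjustment by edgeR and 1 called by DESeq2.

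**Figure D5:**
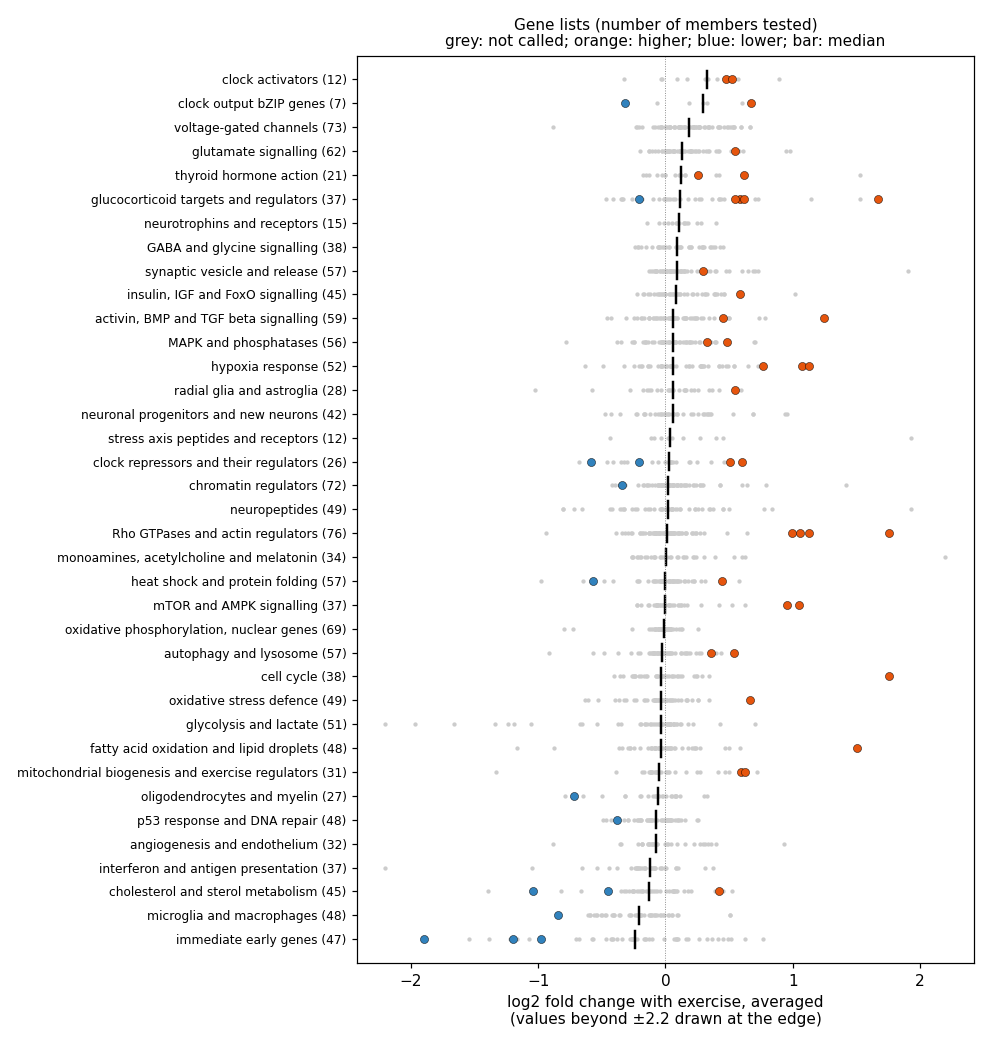
Log2 fold change with exercise averaged over both ages for the members of 37 gene lists; grey points are members not called, orange and blue points are called higher and lower, black bars are list medians, and numbers in brackets are members tested. Clock activators have the highest median, 0.32, and immediate early genes the lowest, -0.24.

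Few genes on the lists of growth and nutrient pathways were called. Counts on these lists and those below are to be read against the 0.908% called among all genes, 0.681% higher. INHBA (ENSDARG00000024759) encodes the subunit of activin A, a secreted factor of the TGF beta family. It stood at 3.51, 4.04, 5.46, 7.99 and 5.09 CPM in 1-year unexercised fish and 14.6, 7.85, 15.9, 10.2 and 15.8 CPM in exercised fish. At 3 years it stood at 4.01 to 5.96 CPM and 8.21 to 13.0 CPM. Overlap was limited to a single pair of 1-year libraries, and the log2 fold change was 1.25 ± 0.16 (edgeR adjusted p 0.00326). The activin receptor gene ACVR2A rose as well (0.45 ± 0.08, medians 97.0 and 138 CPM). They were the 2 called members of 59 tested on the activin, BMP and TGF beta list, whose median was 0.06, and both were called in all 20 fits with a library left out. Without the libraries high in retina genes INHBA kept its call and ACVR2A lost it (edgeR adjusted p 0.0391 and 0.0551).

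Of 37 members of the mTOR and AMPK list 2 rose and 0 fell, with a list median of -0.01. The kinase gene rps6kb1a, whose product p70 S6 kinase is a substrate of mTOR complex 1, had 5.75 to 17.4 CPM (median 9.17) without and 11.1 to 25.3 CPM (median 18.8) with exercise. Its log2 fold change was 0.95 ± 0.13 (edgeR adjusted p 0.00482), and the values at 1 and 3 years were 0.96 and 0.95. In its group 1-year unexercised replicate 5 was highest, at 17.4 CPM against 9.05 to 10.3 CPM. PRR5, a component of mTOR complex 2, had medians of 10.5 and 23.3 CPM (1.05 ± 0.19, adjusted p 0.0130). On the insulin, IGF and FoxO list FOXO1 was the 1 call of 45. IGF1 itself had no call in either direction (adjusted p 0.994).

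Both PGC-1 co-activator genes, regulators of mitochondrial and fuel genes, rose: PPARGC1A, at 7.57 to 13.6 CPM (median 11.3) without and 10.7 to 21.4 CPM (median 17.1) with exercise, and ppargc1b, with medians of 97.0 and 159 CPM. Their log2 fold changes were 0.62 ± 0.14 and 0.60 ± 0.13 (edgeR adjusted p 0.0382 and 0.0284). They were the 2 calls among 31 genes of mitochondrial biogenesis, and the list median was -0.05. Nuclear genes of oxidative phosphorylation gave 0 calls of 69, with 0 higher and 1 lower without adjustment and 0 by DESeq2. Their median was -0.01. Glycolysis genes gave 0 calls of 51, with 2 higher and 4 lower without adjustment and 1 lower by DESeq2.

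On the hypoxia list 3 of 52 rose and 0 fell. The HIF-alpha relative hif1al stood at 56.2, 53.6, 60.4, 61.2 and 202 CPM in 1-year unexercised fish and 143 to 210 CPM in exercised fish. In 3-year fish it stood at 42.4 to 82.3 CPM and 85.3 to 149 CPM. PFKFB4, an enzyme that makes and breaks down a sugar phosphate controlling glycolysis, showed the same layout, with 42.1 to 48.9 CPM in 4 of the 1-year unexercised libraries, 174 CPM in replicate 5 and 118 to 177 CPM in the exercised libraries. At 3 years it stood at 25.6 to 53.1 CPM and 57.3 to 120 CPM. PDK2 (ENSDARG00000020876), a kinase that restrains the entry of pyruvate into mitochondria, had medians of 22.2 and 49.6 CPM. Log2 fold changes were 1.07 ± 0.23, 1.13 ± 0.25 and 0.77 ± 0.18 (edgeR adjusted p 0.0267, 0.0360 and 0.0478). When each of the 20 libraries was left out in turn, 11 fits called hif1al, 8 PFKFB4, 4 PDK2, 9 PPARGC1A and 11 ppargc1b, and none of these was called without the libraries high in retina genes.

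Sterol genes were called in opposite directions. ABCA1, the exporter of cholesterol from cells, ran from 66.9 to 98.8 CPM (median 83.5) without exercise and from 98.0 to 129 CPM (median 113) with it, and rose by 0.42 ± 0.07 on the log2 scale. A pair of genes of the sterol 27-hydroxylase family, which oxidise cholesterol side chains, fell. The first, cyp27a1.1, had the smallest p of all genes (log2 fold change -0.45 ± 0.05, edgeR adjusted p 0.00215). Its levels were 17.3, 17.4, 21.4, 17.7 and 18.9 CPM in 1-year unexercised fish and 17.6, 16.6, 16.7, 19.0 and 17.3 CPM in exercised fish. At 3 years they were 20.0, 21.3, 20.8, 22.2 and 21.4 CPM against 10.6, 10.8, 12.9, 12.4 and 13.3 CPM. The groups overlapped at 1 year and were far apart at 3 years, and the difference between ages was -0.73 on the log2 scale (adjusted p 0.0485). No gene was called for this difference in 17 of the 20 fits that left out 1 library, nor without the filter on low counts. The second, CYP27A1 (ENSDARG00000069186), fell by 1.04 on the log2 scale, with -0.42 ± 0.28 at 1 year and -1.67 ± 0.28 at 3 years. A further copy (ENSDARG00000088013) at -0.67 ± 0.17 did not pass (adjusted p 0.0632). Reads shared between such copies may have been split by the authors' counting. The sterol list, with 45 members, had a median of -0.13.

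Regulators of small GTPases and actin gave 4 higher and 0 lower calls of 76, with a list median of 0.01. BAIAP2 (ENSDARG00000103333), which links Rac to actin, had 41.5 to 130 CPM (median 55.9) without and 69.6 to 149 CPM (median 129) with exercise. Apart from 1-year unexercised replicate 5 at 130 CPM, unexercised libraries stayed at 70.7 CPM or below. The slingshot phosphatase gene ssh2b, whose product activates the actin-severing protein cofilin, had medians of 21.0 and 49.1 CPM. ARHGAP19, the gene of a GTPase-activating protein, was at low levels, with medians of 0.853 and 3.58 CPM. FAM107B had medians of 75.9 and 185 CPM. Their log2 fold changes were 0.99 ± 0.14, 1.06 ± 0.17, 1.75 ± 0.32 and 1.12 ± 0.23, and ARHGAP19 had the largest increase of all genes called by edgeR. Outside the list, the GTPase regulator genes STARD13 (0.72 ± 0.12), abr (0.73 ± 0.13) and RND3 (0.35 ± 0.07 in ENSDARG00000007396 and 0.25 ± 0.06 in ENSDARG00000076799) were called higher, as was TIAM1. Of these, abr and RND3 were picked after their values were seen.

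Other lists held 1 or 2 calls each, where 0.908% of all genes were called. They are given here as log2 fold changes. On the MAP kinase list 2 of 56 rose, among them HRAS (ENSDARG00000005651), a small GTPase gene, by 0.33 ± 0.07. On the thyroid hormone list the receptor gene THRA (ENSDARG00000000151) rose by 0.62 ± 0.13 and the partner receptor gene rxrbb by 0.26 ± 0.06, 2 of 21. Of 57 genes of autophagy and lysosomes, the starter kinase gene ULK2 (0.53 ± 0.10) and the protease gene ctsla (0.36 ± 0.08) rose. Among 57 heat shock genes HSP90AA1 rose (0.44 ± 0.08, medians 315 and 486 CPM) and the transcription factor HSF2 fell (-0.57 ± 0.09, medians 35.4 and 25.2 CPM). The lipase co-activator gene abhd5a rose from a median of 1.17 to 5.14 CPM (1.5 ± 0.34, adjusted p 0.0444), the 1 call of 48 genes of fatty acid oxidation and lipid droplets. Its copy abhd5b had the opposite sign, at -0.88, and did not pass (edgeR adjusted p 0.386). Of 49 oxidative stress genes gstt2 rose (0.66 ± 0.11). Of 57 synaptic vesicle genes syt13 rose (0.29 ± 0.06). Of 72 chromatin genes SUZ12 (ENSDARG00000098924), a core subunit of the Polycomb repressive complex, fell (-0.34 ± 0.07). At 1 and 3 years SUZ12 was at -0.13 ± 0.09 and -0.55 ± 0.09, and syt13 at 0.13 ± 0.09 and 0.46 ± 0.09. The difference between ages was called for neither (edgeR adjusted p 0.982 for each). Of 48 genes of the p53 response and DNA repair cry-dash, a photolyase gene, fell (-0.38 ± 0.09), a call lost in the additive model. With a library left out, the call of cry-dash was made in 5 of 20 fits, those of abhd5a and rxrbb in 6, SH3TC2 in 7 and GLUL in 8.

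Lists of brain cell types and of synaptic signalling held 0 or 1 call each, which is to be read against the 0.908% called among all genes. On the list of 27 oligodendrocyte and myelin genes SH3TC2 fell (-0.72 ± 0.16). Its role in myelin is known from peripheral nerve in mammals. On the list of 48 microglia and macrophage genes SALL1 (ENSDARG00000075891) fell (-0.84 ± 0.19), a factor that marks microglia in mice, and its call was made in 6 of 20 fits that each left out 1 library. Of the 48, 40 had negative and 8 positive values, where 45.7% of all genes tested were positive, with a median of -0.21 (-0.52 at 1 year and 0.06 at 3 years). The microglial genes csf1rb and P2RY12 were at -0.36 ± 0.14 and -0.61 ± 0.29 (adjusted p 0.270 and 0.361). The summed level of the microglia list was 971 to 2494 CPM without and 1075 to 1346 CPM with exercise at 1 year, and 1483 to 3836 and 1958 to 4449 CPM at 3 years. The 2494 CPM belonged to 1-year unexercised replicate 1, the library highest in muscle and epidermis genes. The next highest of its group was replicate 3 at 1652 CPM. In bulk tissue, fewer cells of a type and less RNA per cell cannot be told apart. GLUL was the 1 call of 28 genes of radial glia and astroglia and of 62 genes of glutamate signalling.

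Voltage-gated channel genes had a median of 0.19, with 60 of 73 members positive, against 45.7% of all genes tested. Of the 73, however, 0 were called (6 higher and 3 lower without adjustment by edgeR, 2 called higher by DESeq2). Positive values were also frequent on related lists, in 51 of 62 glutamate, 43 of 57 synaptic vesicle and 25 of 38 GABA and glycine genes. They were less so in neuropeptide genes (27 of 49) and in genes of monoamines, acetylcholine and melatonin (17 of 34). GABA and glycine genes had 0 calls of 38 (2 higher and 2 lower without adjustment, 0 by DESeq2). Neuropeptide genes had 0 of 49 (5 higher and 0 lower without adjustment, 1 by DESeq2). Genes of neuronal progenitors and new neurons had 0 of 42 (7 higher and 1 lower without adjustment, 0 by DESeq2). Neurotrophin genes had 0 of 15 (2 higher and 0 lower without adjustment, 0 by DESeq2). BDNF, the neurotrophin most often linked to exercise in rodents, ran from 32.5 to 92.2 CPM without exercise and from 43.0 to 85.7 CPM with it (0.25 ± 0.13, adjusted p 0.420). The proliferation marker gene mki67 was at 0.29 ± 0.21 (adjusted p 0.576). Both VEGFA copies (ENSDARG00000103542 and ENSDARG00000034700), genes of vessel growth, were at -0.18 ± 0.09 and -0.14 ± 0.07 (adjusted p 0.361 and 0.383). The interferon and antigen presentation list had 0 calls of 37 (0 higher and 2 lower without adjustment, 1 lower by DESeq2). Its median was -0.59 at 1 year and 0.18 at 3 years.

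Of the 192 called genes, 146 were on no list. The examples that follow include genes chosen after their values were seen and are given with no theme, as log2 fold changes. PELI3, a ubiquitin ligase gene of the Pellino family, had the smallest p among higher genes, with 52.3 to 100 CPM (median 63.6) without and 76.0 to 125 CPM (median 99.0) with exercise (0.57 ± 0.07, edgeR adjusted p 0.00215). The endothelial receptor gene heg1 rose by 0.68 ± 0.11, the cytochrome P450 reductase gene POR (ENSDARG00000055092) by 0.51 ± 0.09 and tasor2 by 0.85 ± 0.12. STK35 (ENSDARG00000086856), a kinase gene, rose by 1.11 ± 0.25, and in 1-year unexercised replicate 5 it stood at 36.1 CPM. Leaving out 1 library at a time, this copy of STK35 was called in 4 of 20 fits. A second copy (ENSDARG00000057497), also called higher, was called in 9 of 20.

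On the log2 scale, EEF2K, whose product slows peptide elongation, rose by 0.46 ± 0.08, SGK3 by 0.57 ± 0.11, and the phosphorylase kinase subunit genes PHKA2 and PHKG1 (ENSDARG00000030604), which act on glycogen breakdown, by 0.57 ± 0.10 and 0.99 ± 0.20. The mitochondrial carrier genes slc25a23a and SLC25A23 rose by 0.78 ± 0.14 and 0.56 ± 0.12, and GPT (ENSDARG00000019541), an alanine aminotransferase gene, by 0.60 ± 0.14 (called in 6 of 20 such fits). The transporter gene SLC1A5 rose by 0.38 ± 0.07 and SLC38A4 by 0.45 ± 0.09. The phospholipase gene PLA2G15 rose by 0.60 ± 0.10. The Notch target gene her15.1 rose at a low level, from a median of 1.86 to 3.03 CPM (0.66 ± 0.13).

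Lower genes outside the lists are given in the same way. ZNF395 (ENSDARG00000024195), a zinc finger gene, ran from 38.9 to 54.0 CPM in 1-year unexercised fish and 19.8 to 25.8 CPM in exercised fish, and from 20.5 to 26.6 and 15.3 to 22.1 CPM at 3 years (-0.62 ± 0.09, adjusted p 0.00390). The nucleolar protein gene rbm34 had medians of 14.8 and 10.6 CPM (log2 fold change -0.46 ± 0.07). The RNA acetyltransferase gene NAT10 (-0.25 ± 0.05), TRMT1L, a relative of tRNA methyltransferases (-0.40 ± 0.07), and DPH5, which modifies elongation factor 2 (-0.26 ± 0.06), also fell. So did RPIA of the pentose phosphate pathway (-0.25 ± 0.04). The largest fall was in si:dkey-266f7.5, a gene with no role given in the sources used here, from a median of 1.07 to 0.367 CPM (-2.56 ± 0.47, adjusted p 0.0130). At 3 years it ran from 0.306 to 1.15 CPM without exercise and was 0.184 CPM or less in each exercised library, and at 1 year the groups overlapped.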

How the data were processed

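Total RNA of brain was sequenced in 20 libraries made with the TruSeq RNA v2 kit, per the labels' protocols, which does not mark strand. Tools listed in the submitters' processing notes, without settings, are STAR 2.4.1d, featureCounts 1.4.6-p4 and bcl2fastq 1.8.4, and the build is GRCz10. The authors deposited whole-number read counts for 32105 Ensembl genes, which were used for all tests. A deposited table of RPKM values was not used here. No source used here says how reads shared by near-identical copies were counted, so paralogs are uncertain. Symbols came from a reference table that matched 26269 identifiers, often with human-style names, and identifiers are given where a symbol is shared.

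The main test was edgeR 4.0.16 under R 4.3.3, with these settings: filterByExpr (minimum count 10, minimum total 15), TMM scaling, robust quasi-likelihood dispersions, and a mean for each of the 4 groups. The contrast averaged the exercise differences of both ages, and a second contrast took their difference. P-values were adjusted by Benjamini-Hochberg over 21148 genes, with a threshold of 0.05. The ± values of log2 fold changes are standard errors, computed from the F statistic. Levels are CPM on scaled library sizes. DESeq2 1.42.0, limma 3.58.1 (voom with quality weights), other scalings and filters, an additive model and left-out libraries served as alternatives. Groups came from the labels, and replicate numbers follow accession order and pair nothing. No 2 libraries of a group agreed within sampling noise (chi-square per gene 18.9 to 146 over 40 pairs). The tests were checked on simulated counts with known changes, where DESeq2 made a larger share of false calls than edgeR or voom. Those counts were drawn independently for each gene and library, with no library set apart. They therefore do not measure the share of false calls in these data.

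Named genes were the 15 with the smallest p in each direction among called genes with a symbol, the 10 largest folds in each direction at 1 CPM or more, each called list member, a set from the exercise and stress literature, and up to 3 uncalled members a list. Further genes are said to be chosen after their values were seen. The members and gene lists were chosen with earlier results of these data known. Some genes are not reported here. No genome was used, so no sequence or coordinate is given.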

Additional observations from a re-analysis of the deposited data

Results flagged for a closer look

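Among 135 genes and 8 lists of other tissues, 572 groups of 5 libraries were examined for a library far from the other four on a log2 scale, and 46 such values were found. Chance gives about 1 in 20 groups. In 16 of the 37 gene values the library was 1-year unexercised replicate 5. Genes called higher after exercise and high in this library, in CPM, were rps6kb1a (17.4), tasor2 (78.0), BAIAP2 (130), POR (81.6), slc25a23a (85.7), ULK2 (192), PER2 (270), THRA (13.6), hif1al (202), HRAS (92.2), PFKFB4 (174) and STK35 (36.1). Uncalled genes that stood apart there were FOS (22.3 CPM) and BTG2 (30.9 CPM), low, and tefb (181 CPM) and CRY1 (66.0 CPM), high.

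Values in other libraries were as follows. In the 1-year groups they were FOXO1 at 23.9 CPM and MORN4 at 13.3 CPM in unexercised replicate 3, EEF2K at 28.5 CPM in unexercised replicate 2, ARHGAP19 at 2.00 CPM and zbtb16b at 46.1 CPM in exercised replicate 1, and THRA at 21.4 CPM in exercised replicate 2. In 3-year unexercised fish these were hsd20b2 at 6.85 CPM, BMS1 at 20.7 CPM and NR3C1 at 114 CPM in replicate 2, zbtb16b at 53.8 CPM in replicate 5, SLC38A4 at 20.3 CPM in replicate 4, IGF1 at 5.15 CPM in replicate 3 and POMC at 0.398 CPM in replicate 1. In 3-year exercised fish these were si:dkey-266f7.5 at 0.184 CPM, POMC at 170 CPM and BDNF at 43.0 CPM in replicate 1. TIAM1 stood at 101 CPM in replicate 5, si:dkey-51a16.9 at 23.4 CPM in replicate 2, ankrd50l at 52.8 CPM in replicate 4, and pik3r3a at 23 CPM and KLF9 at 17.1 CPM in replicate 3.

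Of the lists of other tissues, summed levels stood apart in 1-year unexercised replicate 1 for muscle (11190 CPM), epidermis (5428 CPM), meninges with cartilage and bone (1183 CPM) and lymphocytes (43.9 CPM). They also did so for epidermis in 3-year unexercised replicate 3 (3121 CPM) and 1-year exercised replicate 3 (1031 CPM), for muscle in 1-year exercised replicate 2 (829 CPM) and for pituitary in 3-year exercised replicate 1 (320.2 CPM). The retina and pineal list stood apart in 1-year exercised replicate 3 (575.8 CPM). The part of these tissues in the exercise differences was not tested beyond leaving the libraries out.

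The exercise difference of cyp27a1.1 was lower at 3 years than at 1 year by -0.73 on the log2 scale (edgeR adjusted p 0.0485), and all 5 exercised 3-year libraries lay below all 5 unexercised ones.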

How the results depend on the processing

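The direction of all 192 called genes held under each alternative that tested them, which their selection from the same libraries favours. Calls numbered 187 with RLE scaling, 163 without the filter on low counts, 240 with a mean of at least 1 CPM, 189 without robust estimation, 209 with an additive model and 146 without the libraries high in muscle, epidermis or pituitary genes. In that order, 181, 161, 186, 189, 182 and 110 of these calls were among the 192. DESeq2 called 660 genes (405 higher, 255 lower) and voom 512 (329 higher, 183 lower), each including all 192. Without the 3 libraries high in retina genes 12 were called (9 higher, 3 lower), and without all 6 libraries 1 (1 higher, 0 lower). With 1 library left out, calls ran from 89 to 425, higher calls from 66 to 315 and lower calls from 21 to 110. Genes whose exercise effect differed between ages numbered 1, and 12 by DESeq2. They numbered 0 without the filter, without robust estimation, and without the 3 muscle, epidermis or pituitary libraries, the 3 retina libraries or all 6, and 0 to 1 with 1 library left out. The cause of these shifts was not tested.

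Among the named genes, only uncalled ones changed sign. POMC, at 1.93, was -0.18 by voom, -0.15 without the muscle, epidermis and pituitary libraries, and -0.35 without all 6. With 1 library left out its range was -0.35 (without 3-year exercised replicate 1, the library high in pituitary genes) to 2.09. Over the same fits IGF1 ENSDARG00000094132 ranged from -0.0434 to 0.0332 and changed sign in 8, PCNA ENSDARG00000054155 ranged from -0.0438 to 0.00294 and fosaa ENSDARG00000040135 from -0.25 to 0.000667, each with 1 change of sign. No paired analysis was possible because replicate numbers follow accession order and the labels pair no samples. Depth was similar in all libraries (23.4 to 34.6 M counts); genes of few CPM rest on the fewest counts.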
